A study of Mus musculus with 4 samples.

Results

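The genes described here supply the cell with serine, one-carbon units, asparagine and large neutral amino acids. They are Phgdh, Psat1, Psph, Shmt1, Shmt2, Mthfd2, Asns, Slc7a5 and Slc3a2, and they were taken from the deposited gene table by their symbols, 9 of the 34745 genes in it. The 9 genes were selected on measured values of these same libraries, so their differences between DI and vehicle are given as a description and support nothing. Their calls and intervals come from the fit over all tested genes and are no independent test of them. DI is dimethyl itaconate, a cell-permeable derivative of the macrophage metabolite itaconate.

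BMMs are macrophages grown from bone marrow, and RANKL is the cytokine that turns them into osteoclasts, the cells that resorb bone. All cells came from male wild-type C57BL/6 mice aged 8 weeks, were kept for 12 h without FBS, and then received complete medium with RANKL at 100 ng/mL for 24 h. The DI group (2 libraries) also received DI, at 20 mM by the sample labels and at 20 µM by the methods of the study, and the vehicle group (2 libraries) received DMSO. Both groups contained RANKL, so the values describe cells on the way to osteoclasts, and cells without RANKL were not analysed here. The sources used here do not say how many mice or cultures stand behind the libraries, so p-values measure only the spread between these libraries, which may be technical.

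Serine is built from a glycolytic intermediate in a chain of reactions catalysed by the products of Phgdh, Psat1 and Psph. The SHMT enzymes then split serine into glycine and a one-carbon unit carried by folate, which feeds the synthesis of purines and thymidylate and the remethylation of homocysteine. Asns makes asparagine from aspartate, and the heterodimer of SLC7A5 and SLC3A2 exchanges amino acids across the plasma membrane. Several of these genes are known targets of ATF4, the transcription factor of the integrated stress response, and in other cell types NRF2 has been linked to serine synthesis through ATF4.

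Counts were divided by library sizes scaled with the TMM factors of edgeR, as CPM values, and the libraries held between 16085692 and 19403480 counts, where 3 counts correspond to 0.160 to 0.180 CPM. A gene is called changed at an adjusted p under 0.05 in edgeR's quasi-likelihood test over 12590 genes, which called 14.8% of them, 7.14% higher and 7.7% lower with DI. The markers of macrophages were abundant, with all 8 tested and a summed level of 22261 to 23125 CPM with vehicle and 28443 to 29258 CPM with DI. The markers of osteoclasts summed to 323 to 337 CPM with vehicle and 205 to 222 CPM with DI, with 7 of 9 tested and Calcr without a count in any library. Lyz2 made up most of the macrophage sum, at 17960 CPM on average with vehicle and 23279 CPM with DI, and within that list Cd14 and Fcgr1 were called lower, with log2 fold changes of -0.51 and -0.60. Within the osteoclast list Itgb3 was called higher (0.56) and Dcstamp was not called (-0.19). The summed levels moved with the groups, and their part in the results below was not tested. In bulk RNA, fewer cells of a type cannot be told apart from less RNA per cell. The markers of B cells, of T and NK cells and of erythroid cells summed to at most 0.600 CPM in any library, those of mast cells and basophils to at most 1.28 CPM, those of neutrophils to at most 9.90 CPM, and those of stromal cells to 41.4 to 51.3 CPM.

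Of the 9 genes, 5 were called, 4 lower (Psat1, Shmt1, Shmt2 and Slc7a5) and 1 higher (Slc3a2) with DI, beside the 14.8% of all tested genes. The groups were apart, with no overlap between libraries, for 8 of the 9, all but Mthfd2, beside 58.6% of all tested genes. These counts follow from the choice of the genes, and nothing is read from them. With any 1 library left out Shmt1 was not called.

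**Figure D1:**
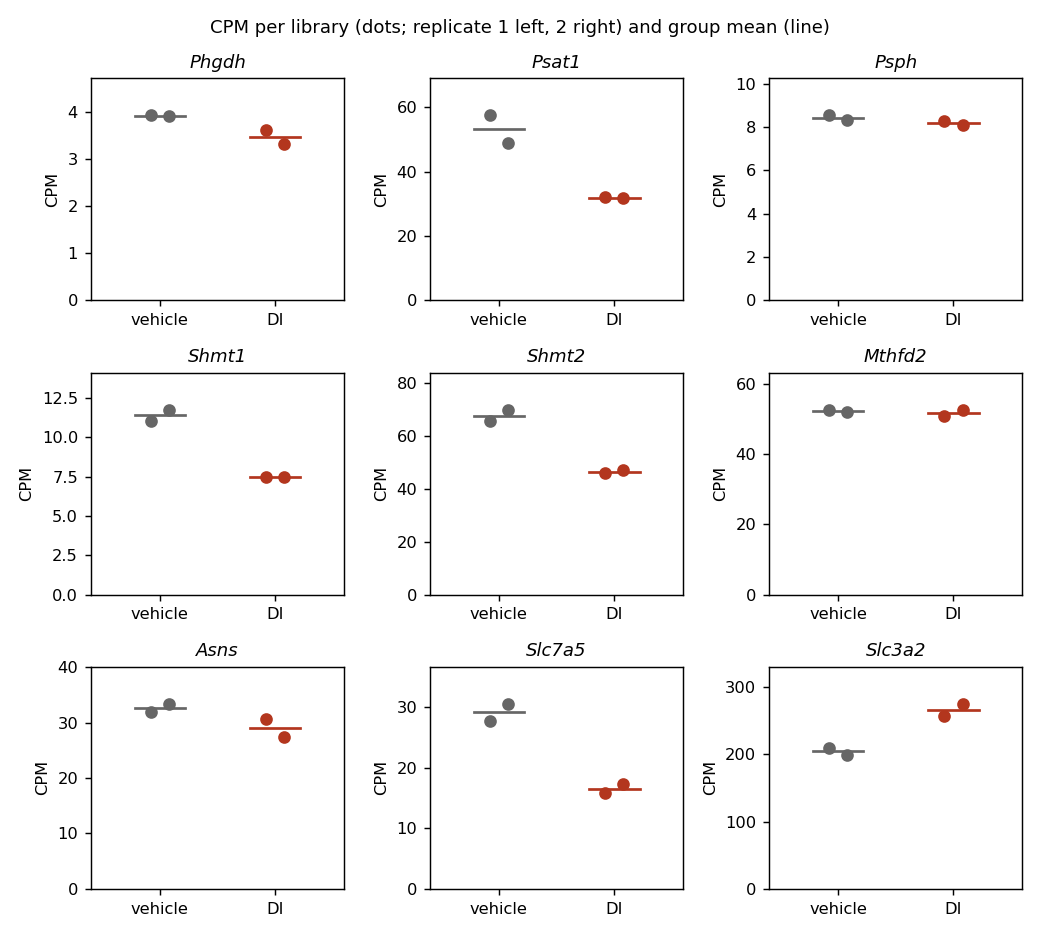
TMM-scaled CPM (vertical axis, from 0 in each panel) of the 9 genes in vehicle and DI libraries, each dot 1 library and each line a group mean of 2. The dots of Psat1, Shmt1, Shmt2 and Slc7a5 lie lower with DI and those of Slc3a2 higher, while the dots of Mthfd2 overlap between 51.0 and 52.7 CPM.

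The window upstream of the start of transcription is shown for Asns, Phgdh and Shmt2. The first holds the sequence that ATF4 is known to use, and the next holds an antioxidant response element core, to which NRF2 is known to bind. Shmt2 holds neither. Neither do the windows of Psat1 and Shmt1, which were lower with DI, Mthfd2, which was not called, and Slc3a2, which was higher. The windows of Psat1, Shmt1, Mthfd2 and Slc3a2 lie wholly inside the spans given for these genes below. Any starts farther upstream were not searched. Each line gives the 150 bases before the start, from RefSeq on GRCm38.p6, on the minus strand of the genome, at chr6:7693210-7693359 for Asns, chr3:98339970-98340119 for Phgdh and chr10:127522445-127522594 for Shmt2. Capitals mark a match to TGATGNAAN (C/EBP-ATF response element) in Asns, read as printed, and to TGACNNNGC (antioxidant response element core) in Phgdh, where the core lies on the strand opposite to the one printed and the capitals are its reverse complement.
Asns: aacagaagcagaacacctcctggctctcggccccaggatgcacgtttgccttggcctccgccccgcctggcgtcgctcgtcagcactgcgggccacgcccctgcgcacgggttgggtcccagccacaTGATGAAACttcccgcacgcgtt
Phgdh: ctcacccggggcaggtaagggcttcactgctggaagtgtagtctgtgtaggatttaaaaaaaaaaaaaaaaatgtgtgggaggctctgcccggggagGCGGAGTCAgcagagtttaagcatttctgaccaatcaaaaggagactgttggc
Shmt2: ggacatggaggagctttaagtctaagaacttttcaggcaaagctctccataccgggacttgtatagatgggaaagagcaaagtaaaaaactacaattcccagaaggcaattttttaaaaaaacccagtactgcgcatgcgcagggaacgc

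Of the 9 genes, 8 had a RefSeq promoter window of 300 bases, from 250 before to 50 after the start, in 9 windows, and Slc7a5 had none. Both strands were searched. TGATGNAAN was found in the window of Asns, from 23 to 15 bases before the start, and is present in 3.95% of all 32851 windows. TGACNNNGC was found on the strand opposite to the gene's own in Asns (172 to 164 bases before the start, beyond the stretch shown), in Phgdh (53 to 45 bases before) and in Psph (4 to 12 bases after), and in 12.4% of all windows. No window of the 8 genes held TGACGTCA (cAMP response element) or CACGTG (E-box), which 1.79% and 7.15% of all windows hold. A match is a description of letters and no shown binding site.

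Phgdh (ENSMUSG00000053398, chromosome 3 from 98313170 to 98339990, GRCm38) encodes phosphoglycerate dehydrogenase, the enzyme of the first step of serine synthesis. It stood at 3.92 and 3.90 CPM with vehicle and at 3.61 and 3.31 CPM with DI, from 73 and 65 counts against 62 and 62. The DI libraries were lower and the groups did not overlap, but the difference was small, with a log2 fold change (log2FC, DI over vehicle) of -0.18 (SE, the standard error, 0.17, 95% interval -0.60 to 0.25). It was not called. Among the pseudogenes, 7 copy 84.2 to 84.6% of its transcript at over 95% identity, 1 more copies 39.8%, and how reads shared with them were assigned is not given in the sources used here, so its level is uncertain.

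Psat1 (ENSMUSG00000024640, chromosome 19 from 15904678 to 15947337) encodes the aminotransferase of the next step. It stood at 57.5 and 49.1 CPM with vehicle and at 32.1 and 31.8 CPM with DI. Both DI libraries were well under both vehicle libraries, and the vehicle libraries spread wider. The mean fell from 53.3 ± 5.97 to 31.9 ± 0.223 CPM (SD, n = 2 each), 1.67-fold lower, with a log2FC of -0.74 (SE 0.092, 95% interval -0.96 to -0.51).

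Psph (ENSMUSG00000029446, chromosome 5 from 129765558 to 129787449) encodes the phosphatase that releases serine in the last step. It stood at 8.54 and 8.35 CPM with vehicle and at 8.27 and 8.11 CPM with DI. The groups were apart by less than the spread of either, and the log2FC was -0.04 (SE 0.12, 95% interval -0.33 to 0.25), not called. Its exons overlap those of Cct6a, a chaperonin gene on the opposite strand with 3537 to 4660 counts per library, over 10.4% of their length, and the sources do not say whether reads were counted by strand, so its level is uncertain. Within the chain of serine synthesis only Psat1 was called. The FPKM of Psat1 was 6.05 and 5.18 times that of Phgdh with vehicle and 3.66 and 3.96 times with DI.

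Shmt1 (ENSMUSG00000020534, chromosome 11 from 60788104 to 60811718), the cytosolic serine hydroxymethyltransferase, stood at 11.1 and 11.8 CPM with vehicle and at 7.46 and 7.47 CPM with DI. Both DI libraries were lower, and the groups did not overlap. The log2FC was -0.61 (SE 0.12, 95% interval -0.90 to -0.33), 1.53-fold lower, on 128 to 206 counts per library.

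Shmt2 (ENSMUSG00000025403, chromosome 10 from 127517123 to 127522444), the mitochondrial enzyme, was the more abundant of the pair. It stood at 65.5 and 70.0 CPM with vehicle and at 46.0 and 47.1 CPM with DI, with no overlap. The mean fell from 67.8 ± 3.15 to 46.6 ± 0.792 CPM (SD, n = 2 each), 1.45-fold lower, with a log2FC of -0.54 (SE 0.065, 95% interval -0.70 to -0.38). On the FPKM scale, which corrects for length, Shmt2 was 14.7 times Shmt1 in both vehicle libraries and 15.3 and 15.6 times in the DI libraries, so the ratio of the pair moved little. Exons of Shmt1 and Shmt2 overlap a gene on the opposite strand over 4.74% (Smcr8) and 1.03% (Ndufa4l2) of their length.

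Mthfd2 (ENSMUSG00000005667, chromosome 6 from 83305691 to 83325908) encodes the mitochondrial enzyme that oxidises the one-carbon unit from SHMT2. It stood at 52.7 and 52.2 CPM with vehicle and at 51.0 and 52.6 CPM with DI, the only one of the 9 whose groups overlapped on this scale. Its log2FC was -0.02 (SE 0.061, 95% interval -0.17 to 0.13), not called. On the deposited FPKM scale, which uses library totals without TMM factors, its values were 11.0 and 10.9 with vehicle and 9.89 and 10.3 with DI, where the groups were apart. Because Shmt2 fell and Mthfd2 was not called, the ratio of Mthfd2 to Shmt2 in FPKM was 0.374 and 0.346 with vehicle and 0.515 and 0.519 with DI.

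Asns (ENSMUSG00000029752, chromosome 6 from 7675169 to 7693254), asparagine synthetase, stood at 32.0 and 33.4 CPM with vehicle and at 30.6 and 27.4 CPM with DI. The DI libraries lay lower without overlap, and they differed from each other by more than the vehicle libraries did. The log2FC was -0.17 (SE 0.083, 95% interval -0.37 to 0.03), and it was not called.

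Slc7a5 (ENSMUSG00000040010, chromosome 8 from 121881150 to 121907694) encodes LAT1, the light chain that carries leucine and other large neutral amino acids. It stood at 27.8 and 30.5 CPM with vehicle and at 15.7 and 17.2 CPM with DI. The groups did not overlap, and of the 9 genes it had the log2FC farthest from 0. The mean fell from 29.1 ± 1.94 to 16.5 ± 1.06 CPM (SD, n = 2 each), 1.77-fold lower, a log2FC of -0.82 (SE 0.097, 95% interval -1.06 to -0.58).

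Slc3a2 (ENSMUSG00000010095, chromosome 19 from 8706882 to 8723369) encodes the heavy chain that brings LAT1 and other light chains to the plasma membrane. It stood at 209 and 199 CPM with vehicle and at 257 and 275 CPM with DI, the only one of the 9 that was higher with DI. The mean rose from 204 ± 6.68 to 265.8 ± 12.4 CPM (SD, n = 2 each), 1.30-fold, a log2FC of 0.38 (SE 0.050, 95% interval 0.26 to 0.50). The chains of the heterodimer thus moved in opposite directions, and in FPKM Slc3a2 was 4.88 and 4.24 times Slc7a5 with vehicle and 10.6 and 10.3 times with DI.

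**Figure D2:**
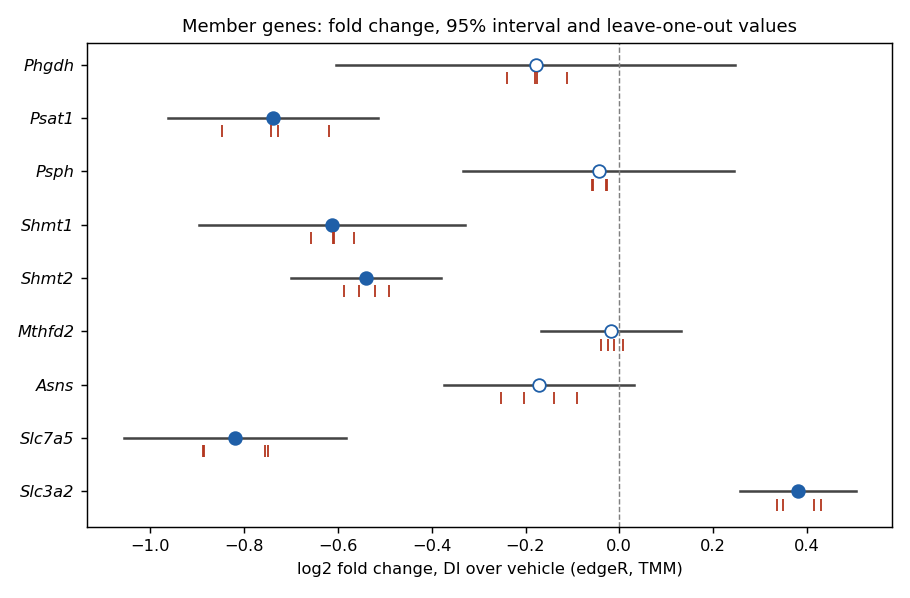
Log2 fold change of DI over vehicle (horizontal axis, edgeR with TMM factors) of the 9 genes, with the 95% interval as a bar and the values with each library left out as small marks. The interval lies below 0 for Psat1, Shmt1, Shmt2 and Slc7a5, above 0 for Slc3a2 and spans 0 for Phgdh, Psph, Mthfd2 and Asns.

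Levels can be set against each other between genes only per length, as FPKM. The lengths implied by the deposited FPKM ran from 2305 bases for Shmt2 to 6958 for Psat1. Which exons or transcripts they cover is not given in the sources used here, so the order and ratios between genes depend on them. With vehicle the order was Slc3a2 (32.6 and 31.1 FPKM), Shmt2 (29.5 and 31.4 FPKM), Mthfd2 (11.0 and 10.9 FPKM), Asns (8.84 and 9.21 FPKM), Psat1 (8.56 and 7.30 FPKM), Slc7a5 (6.67 and 7.33 FPKM), Shmt1 (2.01 and 2.13 FPKM), Phgdh (1.42 and 1.41 FPKM) and Psph (1.38 and 1.34 FPKM). In that order Slc3a2 and Shmt2 overlapped, as did Psat1 and Slc7a5, and the other neighbours were apart. With DI the order was the same except that Psph (1.23 FPKM) stood above Phgdh (1.16 FPKM), and no neighbours overlapped. Slc3a2 at 38.6 FPKM then stood clear of Shmt2 at 19.5 FPKM. The enzymes of serine synthesis other than Psat1 stood at 1.11 to 1.42 FPKM in every library.

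**Figure D3:**
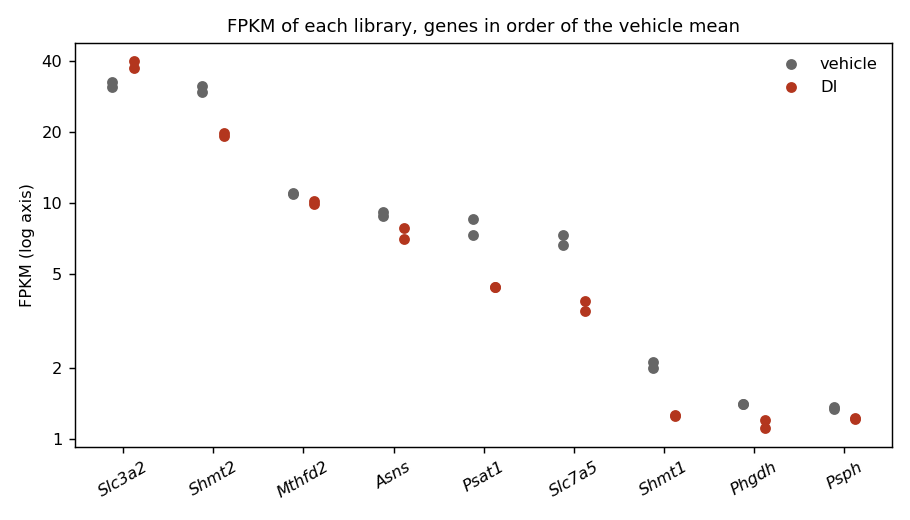
Deposited FPKM (vertical log axis) of each library for the 9 genes, ordered by the vehicle mean. Slc3a2 and Shmt2 lie at 31.8 and 30.5 FPKM on average with vehicle and at 38.6 and 19.5 FPKM on average with DI, while Phgdh and Psph lie lowest in both groups.

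The heavy chain has other light chains, and these did not move alike. Slc7a11, the cystine and glutamate exchanger xCT and a known NRF2 target, stood at 4.68 and 4.52 FPKM with vehicle and at 10.1 and 10.2 FPKM with DI. It rose with a log2FC of 1.25 (SE 0.046, adjusted p = 2.58e-04, edgeR), and the groups were far apart. Slc7a8, which encodes LAT2, was the most abundant light chain on the FPKM scale, at 40.5 and 41.9 FPKM with vehicle and 33.9 and 32.5 FPKM with DI. Its log2FC was -0.21 (SE 0.046, adjusted p = 0.0347, edgeR), and the call was lost with any 1 library left out (adjusted p up to 0.143 over the alternatives, edgeR). Slc7a6 and Slc7a7, the y+L light chains, were not called, at -0.23 (SE 0.11) and -0.16 on the log2 scale, and Slc7a10 had no count in any library. The ratio of Slc7a11 to Slc7a5 in FPKM was 0.701 and 0.616 with vehicle and 2.87 and 2.65 with DI, so on this scale their order was turned round. In CPM Slc7a11 stood above Slc7a5 in both groups, at 69.7 against 29.1 CPM on average with vehicle. Their order with vehicle thus depends on the gene lengths behind FPKM. The heavy chain rose less than xCT, and the ratio of Slc3a2 to Slc7a11 was 6.96 and 6.88 with vehicle and 3.69 and 3.90 with DI.

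**Figure D4:**
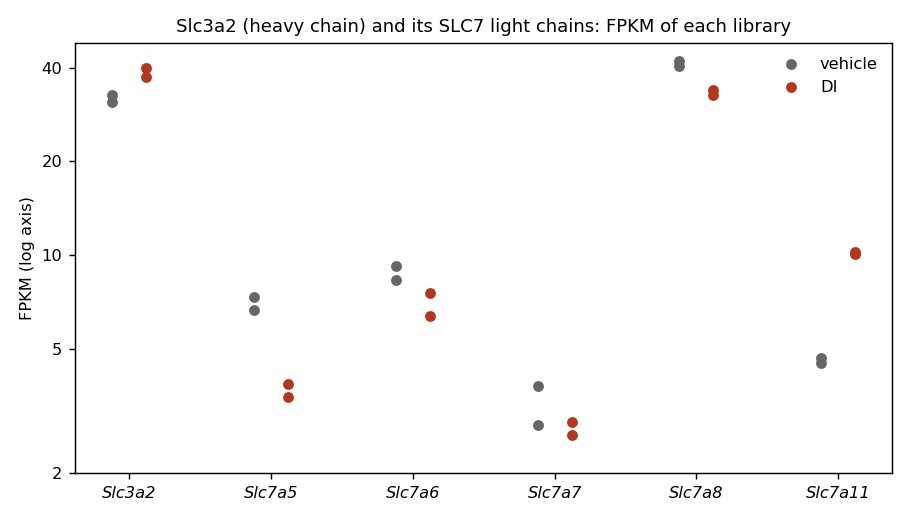
Deposited FPKM (vertical log axis) of each library for Slc3a2 and its SLC7 light chains that had counts. On this scale Slc7a11 lies below Slc7a5 with vehicle and above it with DI, and Slc7a8 lies highest of the light chains in both groups.

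The rest of each pathway was read from lists written from general knowledge, in which every gene counts whatever its change. Of the 19 genes of serine and glycine metabolism, 11 were tested, 5 of them among the 9 selected genes. The other 6 had a median log2FC of 0.04, where the median of all tested genes was 0.00117. Beside 7.7% of all tested genes called lower, 1 of the 6 was called, lower. This was Gcsh, the lipoyl carrier protein of the glycine cleavage system, which fell from 97.7 ± 4.47 to 72.9 ± 1.17 CPM (SD, n = 2 each), a log2FC of -0.42 (SE 0.058, adjusted p = 0.00739, edgeR). Dld, the dehydrogenase of the same system and of other complexes, was the most abundant in FPKM and was not called, at -0.05 on the log2 scale.

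Of the 23 genes of the folate cycle, 21 were tested, 3 of them among the 9 selected genes. Of the other 18, 6 were called lower and none higher, beside 7.7% of all tested genes called lower, and their median log2FC was -0.00113. Slc19a1, the reduced folate carrier, fell from 14.0 ± 2.19 to 8.56 ± 1.24 CPM, a log2FC of -0.71 (SE 0.17, adjusted p = 0.0399, edgeR). Mtr, the methionine synthase that takes its methyl group from folate, fell by 0.51 on the log2 scale (adjusted p = 0.00619, edgeR), and Tyms, the thymidylate synthase, by 0.53 (adjusted p = 0.0289). Mthfd1l and Mthfd1, which make formate and use it, fell by 0.36 and 0.33 (adjusted p = 0.0190 and 0.0365, edgeR). These 4, Mtr, Tyms, Mthfd1l and Mthfd1, were named after their values were seen. Mthfd2l, the relative of Mthfd2, had a log2FC of 0.55 on few counts and was not called (adjusted p = 0.0894, edgeR), and the most abundant genes, Folr2 and Ggh, were not called either, the former with 63.1% of its exons shared with Gm10602 on the opposite strand. With Shmt1 and Shmt2 the list had 8 called genes, and this count was 6 without DI replicate 1, 5 without DI replicate 2, 4 without vehicle replicate 1 and 3 without vehicle replicate 2.

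Mthfd1l then lost its call with any library left out, Mthfd1 without DI replicate 1 or either vehicle library, Tyms without DI replicate 2 or either vehicle library, and Slc19a1 without replicate 2 of either group. In the authors' own KEGG assignment, One carbon pool by folate held 14 tested genes outside the 9, with 7 lower, none higher and a median log2FC of -0.24. Glycine, serine and threonine metabolism held 16 outside the 9, with 3 higher, 1 lower and a median of 0.18. Of all tested genes 7.14% were called higher and 7.7% lower.

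Purine synthesis, a main consumer of formyl groups, had 13 tested genes, with 7 lower, 1 higher and a median log2FC of -0.19. The share called was 61.5%, beside 14.8% of all tested genes. Impdh2, the enzyme of guanine nucleotide synthesis, fell from 16.4 ± 0.670 to 10.9 ± 0.501 CPM, a log2FC of -0.59 (SE 0.10, adjusted p = 0.0171, edgeR), and a pseudogene copies 83.2% of its transcript. Prps1, which makes the activated ribose, fell by 0.54 (adjusted p = 0.0124, edgeR), Pfas by 0.47 and Ppat, the first committed enzyme, by 0.46. Adssl1 rose by 0.29 on the log2 scale (adjusted p = 0.0295, edgeR), and Adss, a gene of the same step, was not called at -0.14. The 3 lower genes outside the rule for names, Gart, Paics and Atic, were at -0.29, -0.25 and -0.19. The count of 8 called genes was 4 without DI replicate 1, 5 without DI replicate 2, 1 without vehicle replicate 1 and 4 without vehicle replicate 2, and Adssl1 lost its call when scaled by library size only. Of these genes only Prps1 kept its call with each library left out.

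Of the 18 genes of the methionine cycle and transsulfuration, 13 were tested and 4 were called, all lower, with a median log2FC of -0.11. The share called was 30.8%, beside 14.8% of all tested genes. The 4 act on the polyamine and salvage side. Srm, the spermidine synthase, fell from 41.8 ± 0.0240 to 29.9 ± 0.297 CPM, a log2FC of -0.48 (SE 0.063, adjusted p = 0.00639, edgeR). Mtap, the methylthioadenosine phosphorylase, was at -0.40, Sms, the spermine synthase, at -0.34, and Amd1, the decarboxylase that starts the branch, at -0.27. Amd2 copies 99.8% of the transcript of Amd1, so that level is uncertain, and pseudogenes copy 29.6% of Sms. Without vehicle replicate 1 only 1 of the 4 was called, and without DI replicate 2 or vehicle replicate 2 it was 2. Srm kept its call with each library left out, and Mtap, Sms and Amd1 did not. Of the 28 genes for other amino acids, 24 were tested, with 2 higher and 1 lower, a share close to that of all tested genes. Ass1, the argininosuccinate synthase of arginine recycling, rose by 0.62 (adjusted p = 0.00312, edgeR), with a copy of 73.1% of its transcript in Gm5424, and Glul, the glutamine synthetase, rose by 0.32 (adjusted p = 0.00404, edgeR), with a pseudogene copy of 40.2% of its transcript. Aldh18a1, the entry enzyme of proline synthesis, fell by 0.41 and lost its call with any library left out. Scaled by library size only, 6 of these genes were called.

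Of the 31 amino acid transporters of the plasma membrane, 18 were tested, 4 were higher and 6 lower. Outside the 9 genes these were 3 and 5 of 16. The share called among the 18 was 55.6%, beside 14.8% of all tested genes. Slc6a9, the glycine transporter GlyT1, rose from 3.38 ± 0.615 to 9.35 ± 0.125 CPM, a log2FC of 1.46 (SE 0.17, adjusted p = 0.00431, edgeR), although Ccdc24 overlaps 27.8% of its exons on the opposite strand. As log2(FPKM + 1), where the pseudocount shrinks differences of a gene at under 1 FPKM, its value was 0.50, and it was still called. Slc36a4 rose by 0.24 (adjusted p = 0.0163, edgeR) and lost its call under library size only and with any library left out. Slc7a1, the cationic amino acid transporter for arginine, fell from 91.2 ± 1.59 to 60.3 ± 2.45 CPM, at -0.60 (SE 0.059, adjusted p = 0.00295, edgeR). Slc1a5, the ASCT2 transporter of glutamine and serine, fell from 92.6 ± 2.22 to 63.4 ± 0.415 CPM, at -0.55 (SE 0.054, adjusted p = 0.00295, edgeR). Slc16a10, a carrier of aromatic amino acids, fell by 0.44, and Slc38a2, a carrier of small neutral amino acids, by 0.23. Slc38a2 lost its call without DI replicate 2 or either vehicle library. The taurine transporter Slc6a6 was the most abundant of the list, at 140.5 FPKM on average with vehicle, and was not called at 0.08 on the log2 scale.

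Of the 17 carriers of lysosomes and mitochondria, 16 were tested, with 2 higher, 1 lower and a median log2FC of 0.11, which was 0.01 when scaled by library size only. The share called, 18.8%, was near the 14.8% of all tested genes. Slc36a1, a lysosomal exporter of small amino acids, rose by 0.48 (adjusted p = 0.00941, edgeR), and Slc15a3, a lysosomal carrier of histidine and peptides, rose by 0.45 (adjusted p = 0.00517, edgeR), with 28.1% of its exons shared with Tmem132a on the opposite strand. Slc25a13, the aspartate and glutamate carrier of mitochondria, fell by 0.37 (adjusted p = 0.0150, edgeR) and lost its call without DI replicate 1 or vehicle replicate 1. The serine carrier Sfxn1 was not called, at -0.20 (SE 0.067, adjusted p = 0.107, edgeR). Scaled by library size only, 6 of these genes were called.

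**Figure D5:**
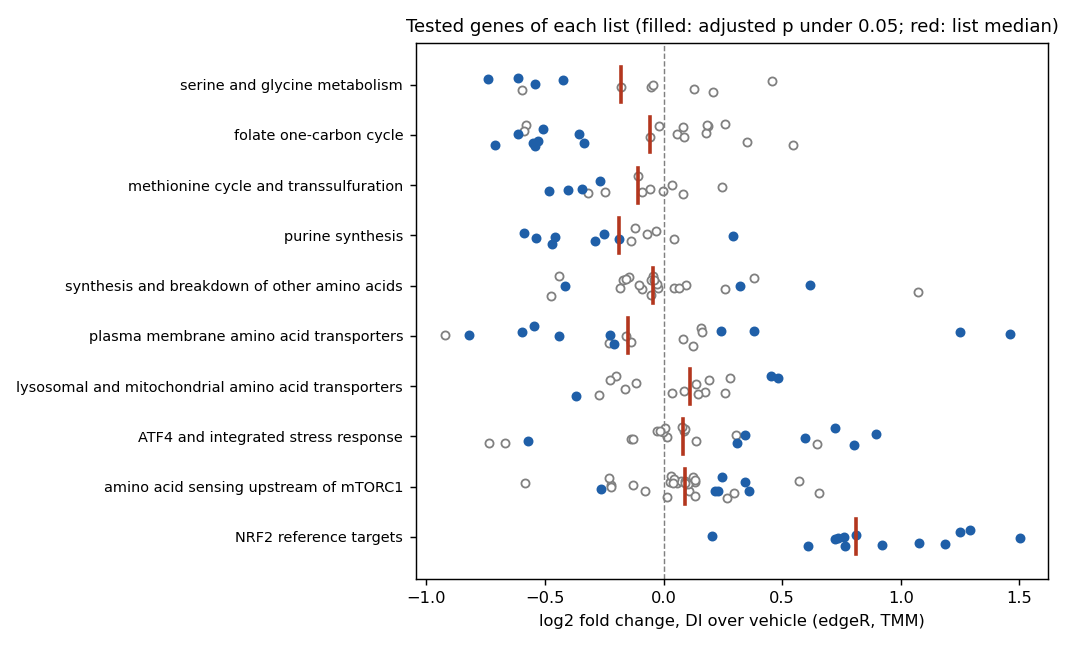
Log2 fold change of DI over vehicle (horizontal axis, edgeR with TMM factors) of every tested gene of each list, filled where the adjusted p was under 0.05, with the list median in red and the median of all tested genes as a dashed line. Called genes of the serine, folate and methionine lists lie only to the left (the selected genes included), all 13 of the NRF2 list lie to the right, and the transporter lists have called genes on both sides.

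The list of the integrated stress response, the pathway of ATF4, held none of the 9 genes. Of its 25 genes, 22 were tested, with 6 higher and 1 lower. The share called was 31.8%, beside 14.8% of all tested genes. The median log2FC of the list was 0.08, and with library size only it was -0.02. Atf4 itself stood at 215.5 and 201 CPM with vehicle and at 226 and 215.9 CPM with DI, the groups nearly touched, and its log2FC of 0.09 (SE 0.052) was not called. Gdf15, a stress-induced secreted factor, rose by 0.90, Cebpb by 0.80, Atf5 by 0.72 and Atf3 by 0.60 on the log2 scale (adjusted p = 0.00298, 5.80e-04, 0.00463 and 8.20e-04, edgeR). Sesn2 and Impact, a regulator of the kinase GCN2 that was named after its values were seen, were the other 2 called higher. Sesn2 lost its call with any library left out, and Impact without vehicle replicate 2. Cebpb shares 20.7% of its exons with Tmem189 on the opposite strand. Ddit3, Trib3 and Chac1, common readouts of ATF4, were not called, at 0.01, 0.08 and -0.14. Eif2ak2, the kinase PKR and an interferon-stimulated gene, fell by 0.57 (adjusted p = 0.00851, edgeR).

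Of 34 genes that sense amino acids upstream of mTORC1, 31 were tested, with 5 higher and 1 lower, and a median log2FC of 0.09, or -0.01 when scaled by library size only. The share called, 19.4%, was near the 14.8% of all tested genes. Lamtor4 and Lamtor1, of the complex that holds Rag GTPases on lysosomes, were at 0.36 and 0.22, Sesn2, the leucine sensor, at 0.34, Rragc at 0.25 and Fnip2 at 0.23, and Rptor, the raptor subunit, fell by 0.26. Lamtor1 lay just inside the threshold and shares 18.7% of its exons with Lrrc51 on the opposite strand, and Sesn2, Lamtor1 and Fnip2 lost their calls when scaled by library size only. The count of 6 was 3 without either DI library, 1 without vehicle replicate 1 and 4 without vehicle replicate 2, and of the 6 only Rragc kept its call with each library left out. For reference, all 13 NRF2 targets were called higher, beside 7.14% of all tested genes, with a median log2FC of 0.81. They were chosen, like all lists, with earlier results of these data known, so this is a description. Their log2FC values included 1.29 for Gclm, 1.25 for Slc7a11 and 1.18 for Prdx1. Tkt, the weakest of them when scaled by library size only (0.10), lost its call there. Over all lists but that of NRF2 and the 9 genes, 18 of 157 genes were higher and 27 lower, with a median of 0.01. The share called was 28.7%, beside 14.8% of all tested genes.

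Among 5623 genes with a mean log2 CPM above 5, Gga3 and Gtf3c5 were among the 3 whose profiles over the 4 libraries were most like that of Slc7a5, by the Euclidean distance of centred log2 CPM values (0.0768 and 0.0876). Ddx10, Mrpl19 and Rbm10 were closest to Phgdh (0.0126, 0.0135 and 0.0148), and Gm9755, Prrc1 and Il6ra to Asns (0.00941, 0.0153 and 0.0279). The distances rest on 4 libraries and are a description, and how many genes lie nearly as close was not counted.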

How the data were processed

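RNA was measured in 4 libraries of RANKL-treated BMMs, 2 with DI and 2 with vehicle, grouped by their titles. The authors deposited unnormalized read counts for each gene, and FPKM values, which could be recomputed from those counts, the library totals and 1 length per gene. A further deposited table repeats the counts with the authors' KEGG assignment. The submitters' processing notes name GRCm38 and mm10. Aligner and counter are not given in the sources used here.

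Counts were fitted in R 4.3.3 with edgeR 4.0.16 (TMM factors, default filter on low counts, quasi-likelihood test, condition as the only term, 2 residual degrees of freedom, Benjamini-Hochberg adjustment over 12590 genes). The 9 genes and all lists were chosen with earlier results of these data known. Named genes are the 9 genes, up to 4 higher and 4 lower called genes and the 2 highest in FPKM of each list, and the 3 profiles nearest to Phgdh, Asns and Slc7a5 (log2 of CPM + 0.5). Some genes that this rule includes are not reported here. Alternatives were DESeq2 1.42.0 size factors and Wald test, library size only, no filter, 10 counts in every library, limma-voom and limma 3.58.1 on log2(FPKM + 1) and log2(FPKM + 0.1), a replicate block and each library left out. Libraries of a group differed beyond sampling noise (chi-square per degree of freedom 7.57 and 7.74) and were counted as 2. Exon overlaps and copies (BLAST+ 2.17.0, at least 95% identity) came from GENCODE M21. Intervals and floors cover counting error and the spread of these libraries only. The fit was tested on simulated data with larger changes than those of the 9 genes. Changes of their size were not covered.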

Additional observations from a re-analysis of the deposited data

How the results depend on the processing

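The 9 genes were selected on these libraries, so their values under other settings are a description and support nothing. Over the 13 alternatives the log2 fold changes of Psat1, Shmt2, Slc7a5 and Slc3a2 ranged from -0.85 to -0.62, -0.64 to -0.49, -0.92 to -0.75 and 0.27 to 0.43. With any library left out, 4 of the 9 were called, without Shmt1, and 5 under the other alternatives. Mthfd2, at -0.02, changed sign without DI replicate 1, to 0.00721, and was at -0.0383 without DI replicate 2. With each library left out, between 1087 (without vehicle replicate 2) and 1394 (without DI replicate 1) of all tested genes were called, 1120 without vehicle replicate 1, against 1868 with all 4, and between 39 (without vehicle replicate 1) and 47 (without either DI library) of the list genes against 62. Fewer samples stand behind these fits, and the lone library of a group is assumed to vary like the other group. Of the 62 called list genes, 35 kept the call with each library left out. The 57 outside the 9 genes kept their sign there and under library size only.

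Library size only called 548 higher and 1932 lower, where TMM called 899 and 969, and put the median of all genes at -0.10. The limma fits called 536 and 1674 on log2(FPKM + 1) and 532 and 1667 on log2(FPKM + 0.1). On log2(FPKM + 1), Adssl1, Slc36a4, Impact, Sesn2, Fnip2 and Rragc were at 0.18, 0.13, 0.20, 0.22, 0.12 and 0.14, and under library size only Lamtor1 was at 0.12 and Atic at -0.29, each over 1.5 times from its TMM value. With the replicate block 1389 genes were called, 5 of the 9, and 5 in place of 8 genes of the folate list, where Slc19a1, Tyms and Mthfd1 were not called. Whether same-numbered libraries share a mouse or culture is not given in the sources used here. The deviations of same-numbered libraries had a correlation of -0.0501 over all tested genes. Counting noise of genes with few counts enters this value, so it cannot decide on pairing. Depth limits Phgdh, Psph and Shmt1 most, at 62 to 206 counts per library.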
